A study of Homo sapiens with 6 samples.

Results

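The genes described are 10 secreted glycoproteins of the extracellular matrix: FN1, SPARC, POSTN, FBN1, THBS1, TNC, VCAN, FBLN1, EFEMP1 and NID1. They were chosen by symbol, all 10 were found among the 60609 genes counted, and 8 of them were deep enough to be among the 19114 genes tested. FN1 and SPARC were picked because they were higher in Delta-TRRAP in these same libraries, so their values are given as a description and without a test.

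The matrix is the mesh of secreted proteins and polysaccharides that surrounds cells. Its glycoproteins are built from repeated modules that bind collagens, integrins, growth factors and one another, and fibroblasts and other anchored cells usually make most of it. The matricellular proteins among them, such as SPARC, periostin, thrombospondin and tenascin, tune adhesion and growth factor signalling more than they build scaffold. Blood cell lines grown in suspension lay down little matrix.

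Poly(A) RNA was sequenced from K562 cells, an established human leukaemia line with erythroid and megakaryocytic features, to ask how gene expression depends on the tethering of TRRAP within the TIP60 complex. EP400 is the subunit that holds TRRAP there, and TIP60 acetylates histones and exchanges histone variants. The endogenous EP400 of all cells carried a degron tag, and all 6 libraries came from cells treated with 500 nM dTAGV-1, the compound that degrades the tagged protein, for 24 h. A transgene at the AAVS1 safe harbour supplied either wild-type EP400 (WT, 3 libraries) or EP400 without the SANT and HD domains that hold TRRAP (Delta-TRRAP, 3 libraries).

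Both complemented lines came from a single degron clone and each was grown from a single clone, so genotype and clone cannot be told apart. The 3 libraries of a group do not measure the spread between clones, and the methods of the study call them biological replicates, so p-values measure the spread between replicates of a single clone. Cells with the tag and no degrader were not analysed here.

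The libraries held 35076835 to 42616061 counts in genes. At least 1 count was seen for 25668 to 25998 genes in WT and for 27928 to 28033 genes in Delta-TRRAP, and mitochondrial genes took 3.18% to 3.71% and 5.07% to 6.24% of the counts. Transcripts assigned to EP400 itself, endogenous and transgene together, were at 4897, 4897 and 5377 normalized counts in WT and 5533, 6833 and 4357 in Delta-TRRAP, and the groups overlapped (log2 difference 0.14 ± 0.11 SE). All 13 erythroid markers listed for K562 had counts in every library of both groups, whereas the label gives the cell type as lymphoblast.

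The promoters of 3 members are shown because these genes had large differences between the groups and promoters that differ in base composition and motifs. Each window is the 250 bases before the RefSeq start of the gene, on the strand of the gene (assembly GRCh38.p14), and capitals mark matches to any of 6 motifs searched on both strands. FN1 lies at chr2:215436069-215436318, SPARC at chr5:151686916-151687165 and POSTN at chr13:37598769-37599018, all on the minus strand.
FN1: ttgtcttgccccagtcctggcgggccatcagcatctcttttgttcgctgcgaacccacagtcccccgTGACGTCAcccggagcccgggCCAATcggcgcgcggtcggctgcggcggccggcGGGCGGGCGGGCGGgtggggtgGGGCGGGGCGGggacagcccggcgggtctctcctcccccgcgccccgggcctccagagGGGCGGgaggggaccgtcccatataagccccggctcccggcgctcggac
SPARC: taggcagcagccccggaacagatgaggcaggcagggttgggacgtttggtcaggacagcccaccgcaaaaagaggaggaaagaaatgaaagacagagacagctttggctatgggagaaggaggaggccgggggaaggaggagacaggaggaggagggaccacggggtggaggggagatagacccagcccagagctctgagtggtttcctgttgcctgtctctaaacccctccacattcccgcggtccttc
POSTN: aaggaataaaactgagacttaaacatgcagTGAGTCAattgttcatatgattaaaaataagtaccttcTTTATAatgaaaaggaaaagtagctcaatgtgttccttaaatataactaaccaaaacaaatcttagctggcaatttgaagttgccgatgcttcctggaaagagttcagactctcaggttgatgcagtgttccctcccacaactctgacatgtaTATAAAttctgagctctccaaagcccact

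The FN1 window was 76.4% G and C with 32 CpG dinucleotides, and it held TGACGTCA, the site of CREB family factors, beginning 183 bases before the start. It also held CCAAT beginning 162 bases before the start and 6 matches to the GC box GGGCGG, which overlap one another in part. The SPARC window was 59.2% G and C with 7 CpG dinucleotides and held none of the 6 motifs. The POSTN window was 36.4% G and C with 1 CpG, held TATAAA beginning 29 bases before the start and again on the opposite strand, and held a match to TGANTCA, the AP-1 site. Over all 35116 promoter windows of this length the median G and C content was 58.0% and the median number of CpG dinucleotides was 11.

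Promoter entries were found for 9 of the 10 members, all but EFEMP1. Among the 9, the GC box GGGCGG was present in 6 windows (FN1, VCAN, THBS1, TNC, FBLN1 and NID1), beside 42.6% of all windows. The motif CCAAT was present in 3 (FN1, THBS1 and NID1), beside 11240 of the 35116 windows. TATAAA and the AP-1 site were found in POSTN alone, beside 10.7% and 6.57% of all windows, and the CREB site in FN1 alone, beside 1.65%. The E-box with the letters CACGTG was in none of the 9, beside 6.34% of all windows. The 3 promoters shown were picked partly because their motifs differ, so their lack of a shared motif follows from the choice. These matches describe letters in a window and not binding.

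FN1 encodes fibronectin, the adhesive glycoprotein that links integrins to collagen and to cell-surface heparan sulphate (ENSG00000115414.19, chr2:215360440-215436073, minus strand, GRCh38). It had 640, 651 and 699 counts in WT and 12192, 14466 and 9585 in Delta-TRRAP. After scaling for library size and composition (TMM, giving normalized counts), the levels were 648, 624 and 711 in WT and 11956, 14102 and 10139 in Delta-TRRAP. Every Delta-TRRAP library was therefore far above every WT library, and the Delta-TRRAP libraries were also the more scattered. The group means were 661 ± 44.8 (SD, n = 3) and 12066 ± 1984 (SD, n = 3), an 18.2-fold difference (log2 4.19 ± 0.11 SE). In bulk RNA, more cells with a transcript and more transcript per cell cannot be told apart.

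In CPM, counts scaled to the total of a library, FN1 was at 15.9, 15.3 and 17.5 in WT and at 324, 376 and 273 in Delta-TRRAP. The lowest Delta-TRRAP library was thus more than 10-fold above the highest WT library. FN1 has 27 annotated transcripts, including forms with and without the alternatively spliced extra domains, and gene counts do not separate them. The 3 genes whose profile over the 6 libraries lay nearest to that of FN1, by Euclidean distance of centred log2 values among 11458 genes, were IL10RA (distance 0.26), RAB3B (0.30) and SLC4A1 (0.35). Their log2 differences were 4.21, 4.15 and 4.33.

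**Figure D1:**
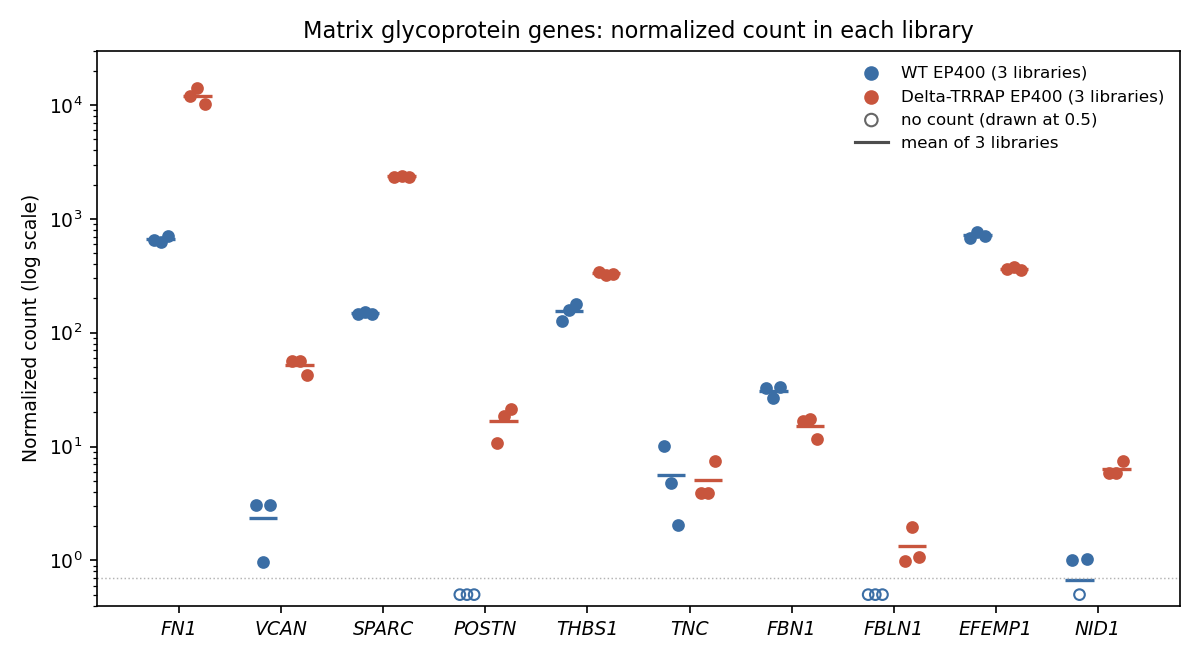
Normalized counts of the 10 members in each of the 6 libraries, on a log axis, with WT in blue and Delta-TRRAP in red, a bar at each group mean and libraries without a count drawn as open circles at 0.5. FN1 and SPARC stand more than 10-fold higher in all Delta-TRRAP libraries, EFEMP1 and FBN1 are lower there, and TNC overlaps.

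The scatter of FN1 in Delta-TRRAP moved with that of other long genes. Delta-TRRAP replicate 1 lay at the group mean on the log2 scale (0.00), replicate 2 at 0.24 above it and replicate 3 at 0.24 below it. The 2942 expressed genes with merged exons over 8 kb had medians of −0.01, 0.07 and −0.06 in these libraries, in the same order of libraries. The 1224 genes under 2 kb had medians of 0.02, −0.07 and 0.04, so long and short genes deviated in opposite directions. EP400, with 18.0 kb of merged exons, deviated by 0.01, 0.32 and −0.33. SPARC, with 4.64 kb, deviated by 0.00, 0.02 and −0.02. The part of length in the scatter of FN1 was not tested, and the difference between groups stayed at log2 4.06 to 4.29 with each library left out in turn.

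**Figure D2:**
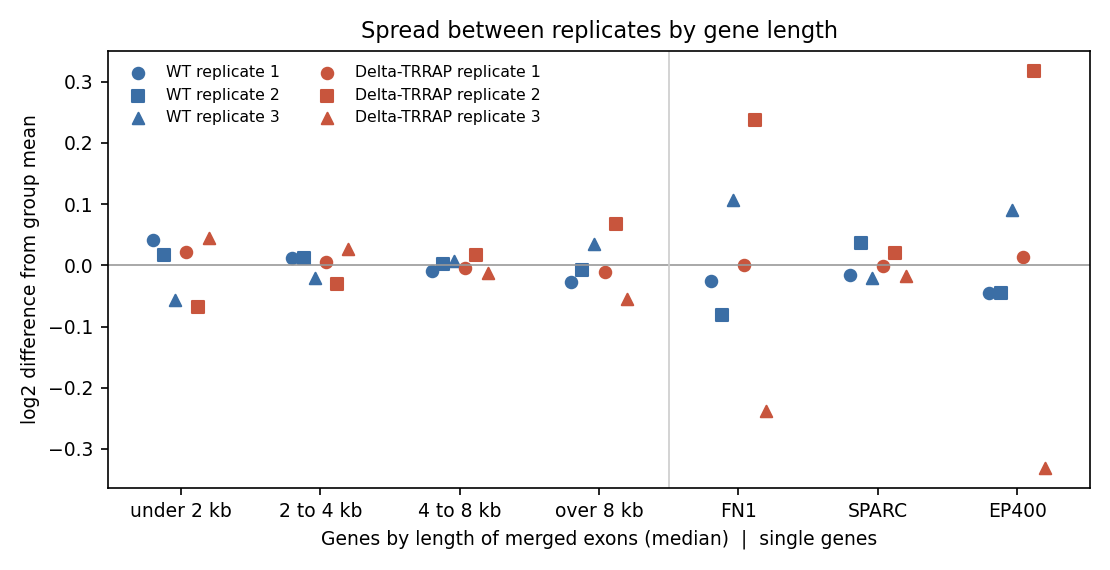
Log2 deviation of each library from its group mean for genes binned by merged exon length, with the median of each bin at the left, the single genes FN1, SPARC and EP400 at the right, and one symbol per library. FN1 and EP400 lie on the same side of 0 as the longest bin in Delta-TRRAP replicates 2 and 3.

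VCAN encodes versican, a large proteoglycan that binds hyaluronan (ENSG00000038427.16, chr5:83471618-83582303, plus strand). It had 3, 1 and 3 counts in WT and 58, 58 and 40 in Delta-TRRAP. The groups did not overlap, and the WT libraries together held 7 counts against 156. The normalized means were 2.35 ± 1.21 and 51.9 ± 8.31 (SD, n = 3 each), a 21.3-fold difference (log2 4.41 ± 0.36 SE, edgeR quasi-likelihood test, Benjamini-Hochberg adjusted p = 3.04e-08). VCAN was deep enough to be tested only through its Delta-TRRAP libraries.

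SPARC encodes osteonectin, a collagen-binding matricellular protein (ENSG00000113140.11, chr5:151661096-151686975, minus strand). It had 145, 159 and 144 counts in WT and 2403, 2453 and 2202 in Delta-TRRAP. The normalized counts were 147, 153 and 147 against 2356, 2391 and 2329. The groups were widely separated, and the libraries within each group were close to each other, with coefficients of variation of 2.26% in WT and 1.32% in Delta-TRRAP against 6.77% and 16.4% for FN1. The means were 149 ± 3.36 and 2359 ± 31.1 (SD, n = 3 each), a 15.8-fold difference (log2 3.99 ± 0.06 SE).

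The profiles nearest to that of SPARC were those of MALT1 (distance 0.17, log2 difference 4.06), CPEB4 (0.21, 3.86) and MERTK (0.23, 4.08). None of the 3 was among the 3 nearest profiles of FN1, but lists of 3 out of 11458 genes can show little about sharing. The 19 expressed genes that start within 2 Mb of SPARC had a median log2 difference of 0.54, with a range of −0.79 to 1.70. The 8 around FN1 had a median of 0.04 with a range of −0.56 to 0.66, and the median over all genes tested was 0.03. Within 500 kb the median was 0.44 around FN1, from 1 gene, and 0.54 around SPARC, from 5 genes. Both genes lay above the range of their neighbours, but they were picked for their rise, which partly fixes this.

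POSTN encodes periostin, a matricellular protein of the fasciclin family that binds collagen and integrins (ENSG00000133110.15, chr13:37562583-37598844, minus strand). It had no count in any WT library and 11, 19 and 20 counts in Delta-TRRAP. Counting the WT group at a floor of 3 counts over its 3 libraries, POSTN was at least 16.8-fold higher in Delta-TRRAP, where its normalized mean was 16.8 ± 5.39 (SD, n = 3). The edgeR quasi-likelihood test gave an adjusted p of 1.15e-05, and like VCAN the gene was tested only through Delta-TRRAP. POSTN therefore had counts in every library of one group and in none of the other, at 50 counts in all.

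THBS1 encodes thrombospondin-1, a matricellular protein that activates latent TGF-beta and signals through CD47 and CD36 (ENSG00000137801.11, chr15:39581079-39599466, plus strand). Its normalized counts were 127, 157 and 180 in WT and 344, 323 and 331 in Delta-TRRAP. The groups did not overlap, and THBS1 was expressed in every library of both. The means were 155 ± 26.8 and 333 ± 10.8 (SD, n = 3 each), a 2.15-fold rise (log2 1.10 ± 0.11 SE, edgeR adjusted p = 3.11e-07). Without WT replicate 1, the lowest of its group, the log2 difference was 0.98 (edgeR adjusted p = 3.06e-06), which is just under the 2-fold threshold.

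TNC encodes tenascin-C, a hexameric matricellular protein that modulates adhesion to fibronectin (ENSG00000041982.16, chr9:115019575-115118207, minus strand). It had 10, 5 and 2 counts in WT and 4, 4 and 7 in Delta-TRRAP. The groups overlapped, and the normalized means were 5.66 ± 4.12 and 5.08 ± 2.02 (SD, n = 3 each). The log2 difference was −0.17 ± 0.56 SE (edgeR adjusted p = 0.806), and no difference was detectable at this depth. Its sign rested on WT replicate 1, without which it was 0.52 (edgeR adjusted p = 0.482).

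FBN1 encodes fibrillin-1, the main protein of the microfibrils on which elastic fibres form (ENSG00000166147.13, chr15:48408313-48645721, minus strand). It had 32, 28 and 33 counts in WT and 17, 18 and 11 in Delta-TRRAP. The groups did not overlap, in the direction opposite to FN1. The normalized means were 31.0 ± 3.59 and 15.3 ± 3.19 (SD, n = 3 each), a level 2.002-fold lower in Delta-TRRAP (log2 −1.001 ± 0.25 SE, edgeR adjusted p = 0.00245), which passed the fold threshold only narrowly. FBN1 was not called without WT replicate 1, without WT replicate 3 or without Delta-TRRAP replicate 3, where the log2 differences were −0.97, −0.94 and −0.86 with edgeR adjusted p-values of 0.0102, 0.0104 and 0.0109. It was also not called by DESeq2 (−1.02, adjusted p = 0.0119), by limma-voom (−0.998, adjusted p = 0.00356) or after scaling by library size alone (−0.87, edgeR adjusted p = 0.00655).

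EFEMP1 encodes fibulin-3, an elastic fibre and basement membrane glycoprotein (ENSG00000115380.20, chr2:55865967-55924139, minus strand). It had 674, 801 and 701 counts in WT and 373, 385 and 335 in Delta-TRRAP. Every Delta-TRRAP library was below every WT library. The normalized means were 722 ± 43.3 and 365 ± 10.5 (SD, n = 3 each), which is 1.98-fold lower in Delta-TRRAP (log2 −0.98 ± 0.07 SE, edgeR adjusted p = 6.65e-09). This lay just outside the 2-fold threshold, and EFEMP1 was called without WT replicate 1 (log2 −1.02, edgeR adjusted p = 1.12e-07) and without Delta-TRRAP replicate 2 (log2 −1.002, edgeR adjusted p = 1.07e-10). EFEMP1 and FBN1 lay on either side of that threshold with nearly equal differences.

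FBLN1 encodes fibulin-1, which binds fibronectin and elastic fibres (ENSG00000077942.19, chr22:45502238-45601135, plus strand). It had no count in WT and 1, 2 and 1 counts in Delta-TRRAP, too few to test. NID1 encodes nidogen-1, which bridges laminin and type IV collagen in basement membranes (ENSG00000116962.15, chr1:235975830-236065109, minus strand). It had 1, 0 and 1 counts in WT and 6, 6 and 7 in Delta-TRRAP, also below the depth for testing. For NID1 the ratio of summed counts, corrected for depth, was 9.57 with an exact 95% interval of 2.31 to 84.7, which covers counting error only.

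A gene was called when its edgeR adjusted p was at most 0.01 and its fold at least 2, and 16.5% of all genes tested were called higher in Delta-TRRAP and 6.08% lower. Of the members, FN1, SPARC, POSTN, VCAN and THBS1 (5) were called higher, FBN1 (1) lower, and TNC and EFEMP1 were tested and not called. Nothing can be read from these counts against the background, since 2 of the 5 were picked for their rise and POSTN and VCAN passed the filter only through the group where they were high. The 3 libraries of Delta-TRRAP were all above those of WT for 7 members, all below for 2 and overlapping for TNC. The 7 include FBLN1 and NID1, which were too low to test. Over the genes tested, the libraries did not overlap for 37.4% in the higher and 33.7% in the lower direction.

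Levels of different genes were compared as normalized counts per kilobase of merged exons. In WT the order was EFEMP1 at 182, FN1 at 38.4, SPARC at 32.05, THBS1 at 16.9, FBN1 at 1.67, TNC at 0.59, VCAN at 0.16 and NID1 at 0.12, with POSTN and FBLN1 at no count. In Delta-TRRAP it was FN1 at 701, SPARC at 509, EFEMP1 at 92.2, THBS1 at 36.3, VCAN at 3.54, POSTN at 3.08, NID1 at 1.10, FBN1 at 0.83, TNC at 0.53 and FBLN1 at 0.18. EFEMP1 was thus the leading matrix glycoprotein of the 10 in WT, and FN1 and SPARC in Delta-TRRAP. The libraries of FN1 (36.3 to 41.3) and SPARC (31.6 to 32.9) did not overlap in WT, and neither did those in Delta-TRRAP (589 to 819 and 502 to 516). In Delta-TRRAP the ranges of VCAN (2.88 to 3.88) and POSTN (1.97 to 3.87) overlapped, and so did those of FBN1 (0.63 to 0.95) and TNC (0.41 to 0.77). Per kilobase of the longest transcript, POSTN (5.10) came before VCAN (4.21) in Delta-TRRAP, and FBN1 (1.32) before NID1 (1.10).

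**Figure D3:**
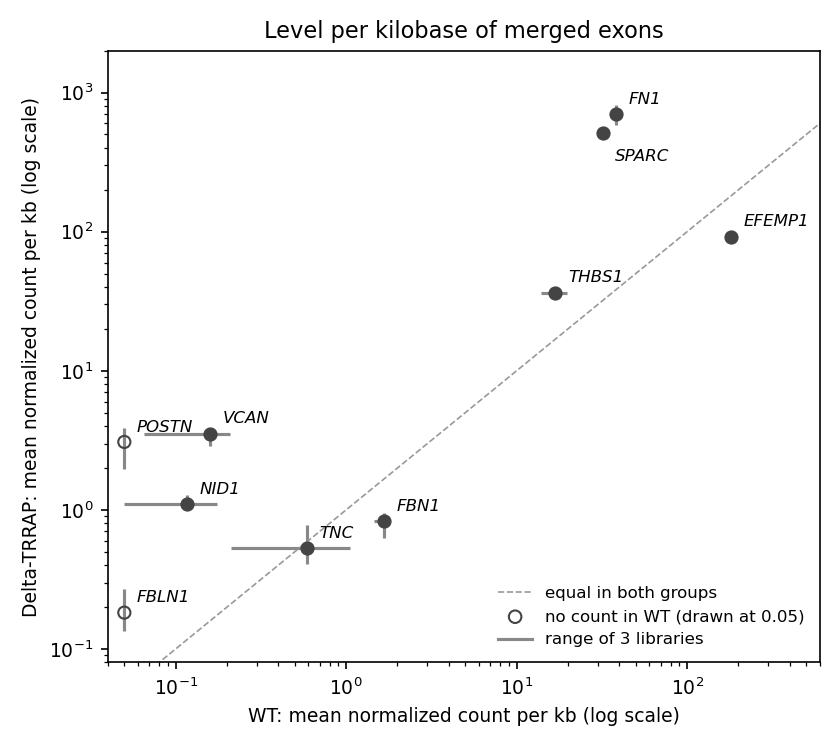
Mean normalized count per kilobase of merged exons in WT (horizontal axis) and Delta-TRRAP (vertical axis) for the 10 members, on log axes with the range of 3 libraries and the line of equal levels. POSTN and FBLN1, without a WT count, are open circles placed at 0.05. FN1 and SPARC lie far above the line, and EFEMP1 and FBN1 lie below it.

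The normalized counts of the 10 members gave sums of 1652, 1735 and 1791 in the WT libraries against 15117, 17296 and 13244 in Delta-TRRAP. FN1 made up 39.3%, 36.0% and 39.7% of the sum in WT and 79.1%, 81.5% and 76.6% in Delta-TRRAP. With SPARC added, the shares were 44.8% to 48.2% in WT against 94.1% to 95.4% in Delta-TRRAP. The summed rise was therefore almost entirely that of the genes picked for it.

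The 5 lists of other matrix genes were described by their counts and by the median log2 difference. Over all genes tested, 16.5% were called higher and 6.08% lower, and the median was 0.03. Of 31 relatives of the members, such as other fibrillins, fibulins and thrombospondins, 16 were tested, 6 were called higher and 3 lower, with a median of 0.75. TNXB, a tenascin, rose from 77.1 ± 12.2 to 190 ± 4.82 normalized counts (log2 1.30 ± 0.12 SE, edgeR adjusted p = 2.02e-07), but it has a near-identical pseudogene copy, so its counts are uncertain. LTBP1, which tethers latent TGF-beta to fibronectin and fibrillin, fell from 6930 ± 423 to 2186 ± 231 (log2 −1.66 ± 0.07 SE, edgeR adjusted p = 2.25e-11). LTBP1 thus moved opposite to FN1, to which its product binds.

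The closest relatives of several members were chosen for mention after their values were seen. SPARCL1, the paralog of SPARC, rose from 3.95 ± 1.56 to 49.9 ± 9.51 normalized counts (log2 3.60 ± 0.33 SE, edgeR adjusted p = 1.2e-07). FBN2, the second fibrillin, rose from 1.99 ± 0.06 to 31.8 ± 6.68 (log2 3.91 ± 0.40 SE, edgeR adjusted p = 4.02e-07), so the fibrillins FBN1 and FBN2 moved in opposite directions. TGFBI, the fasciclin-family relative of POSTN, fell from 18.3 ± 2.07 to 5.73 ± 1.45 (log2 −1.66 ± 0.34 SE, edgeR adjusted p = 0.000517). SPARCL1 and FBN2 were among 6 of the 16 tested relatives that passed the filter through a single group, as 3 receptors, 3 basement membrane partners and 6 proteases or inhibitors of the other lists also did.

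Of 29 matrix receptors, 23 were tested, 7 were called higher and 4 lower, with a median of 0.17. The falls were led by ITGA2B, the platelet fibrinogen and fibronectin receptor subunit, from 661 ± 31.6 to 89.3 ± 14.5 (log2 −2.89 ± 0.10 SE, edgeR adjusted p = 2.17e-12). ITGB5, a partner of the alpha-V integrin, fell from 2309 ± 121 to 337 ± 14.6 (log2 −2.77 ± 0.06 SE, edgeR adjusted p = 2.2e-14). SDC1, the heparan sulphate proteoglycan syndecan-1, rose from 21.3 ± 4.62 to 91.0 ± 19.0 (log2 2.09 ± 0.22 SE, edgeR adjusted p = 5e-07).

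The main receptor pair for fibronectin, ITGA5 with ITGB1, was looked at after the values were seen. ITGA5 was at 5315 ± 115 in WT and 4076 ± 187 in Delta-TRRAP (log2 −0.38 ± 0.05 SE, edgeR adjusted p = 8.37e-06), and ITGB1 was at 19077 ± 406 and 13323 ± 1062 (log2 −0.52 ± 0.06 SE, edgeR adjusted p = 1.45e-06). Both passed the p threshold and not the fold threshold, and ITGAV differed by log2 0.06 ± 0.05 SE (edgeR adjusted p = 0.282). CD47, the receptor of thrombospondin-1, fell from 7152 ± 133 to 2676 ± 83.3 (log2 −1.42 ± 0.05 SE, edgeR adjusted p = 2.28e-12). ITGA9, an integrin chain that binds tenascin-C and a spliced form of fibronectin, rose from 1.69 ± 1.55 to 77.9 ± 10.3 (log2 5.45 ± 0.38 SE, edgeR adjusted p = 5.04e-09) and was tested only through Delta-TRRAP. CD36, also a receptor of thrombospondin-1, had 0, 0 and 2 counts in WT and 2, 6 and 6 in Delta-TRRAP, too few to test. Of the integrin genes in this paragraph, ITGA5 and ITGB1 were thus lower, ITGA9 was higher and ITGAV had no detected difference. They were chosen after the values were seen and are not all the fibronectin receptors of the list.

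Of 22 basement membrane partners of nidogen, 15 were tested, 8 were called higher and 2 lower, with a median of 1.30. These were 53.3% and 13.3% of those tested, beside 16.5% and 6.08% over all genes tested. The filter was passed through a single group by 3 of the 15, and no test of the list was made. COL4A5, a type IV collagen chain, rose from 184 ± 15.8 to 1301 ± 59.0 (log2 2.83 ± 0.08 SE, edgeR adjusted p = 9.8e-14). LAMC1, the laminin gamma chain that binds nidogen, rose from 36.0 ± 7.95 to 201 ± 18.5 (log2 2.47 ± 0.15 SE, edgeR adjusted p = 1.61e-09), and LAMA4 rose with log2 1.75 ± 0.11 SE (edgeR adjusted p = 1.36e-09). LAMB1 fell with log2 −1.46 ± 0.07 SE (edgeR adjusted p = 4.4e-11), and HSPG2, the proteoglycan perlecan, fell from 5451 ± 418 to 2135 ± 418 (log2 −1.35 ± 0.10 SE, edgeR adjusted p = 1.6e-08). The summed normalized counts of this list were lower in Delta-TRRAP, at 9241 to 10566 against 12654 to 14184, with the abundant HSPG2 and LAMB1 among the genes that fell.

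Of 20 partners of elastic fibres and hyaluronan, 8 were tested, 3 were called higher and 1 lower, with a median of 0.30. HAPLN3, which links hyaluronan to proteoglycans such as versican, rose from 26.5 ± 2.72 to 111 ± 27.1 (log2 2.05 ± 0.21 SE, edgeR adjusted p = 4.68e-07). LOXL4, a collagen and elastin cross-linking enzyme, rose from 32.4 ± 6.93 to 127 ± 19.9 (log2 1.96 ± 0.18 SE, edgeR adjusted p = 1.43e-07). Both genes were named by a rule that required no overlap between the groups, so their separation follows from the choice.

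Of 33 matrix proteases and inhibitors, 20 were tested, 6 were called higher and 3 lower, with a median of 0.53. PLAU, the protease urokinase, fell from 436 ± 26.2 to 168 ± 3.62 (log2 −1.37 ± 0.08 SE, edgeR adjusted p = 1.29e-09), and the membrane protease MMP15 fell with log2 −1.28 ± 0.06 SE (edgeR adjusted p = 5.54e-11). Both were named by the rule that required no overlap between the groups, so their separation follows from the choice. More genes of the list were called higher than lower. The summed normalized counts of this list were higher in Delta-TRRAP, at 9813 to 10312 against 6945 to 7118. Much of that rise was in TIMP1, an inhibitor and the most abundant gene of the list. TIMP1 went from 3519 ± 41.8 to 6830 ± 275 (log2 0.96 ± 0.05 SE, edgeR adjusted p = 2.35e-10) and was not called. The sum therefore does not describe the proteases.

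**Figure D4:**
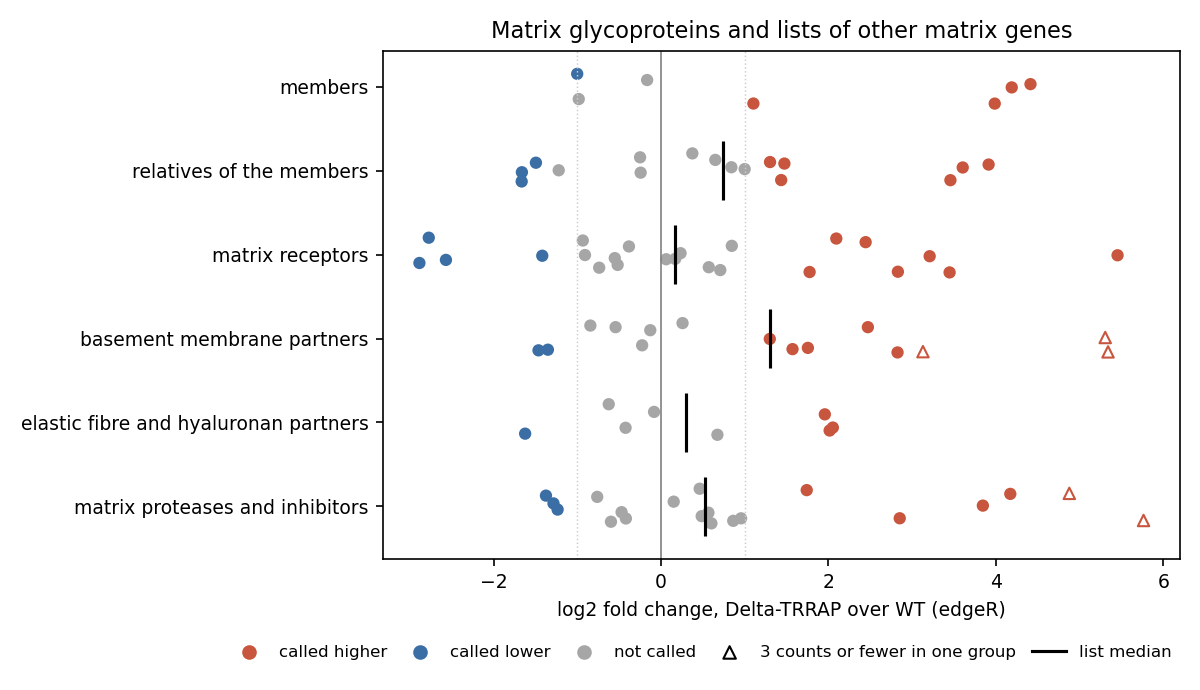
Log2 difference (Delta-TRRAP over WT) of every tested gene of the 5 matrix lists and of 7 of the 8 tested members (POSTN has no WT count and is not drawn), coloured by call, with a bar at the median of each list (0.75, 0.17, 1.30, 0.30 and 0.53) and dotted lines at 2-fold. Open triangles are genes with 3 counts or fewer in a group. Rises and falls past 2-fold stand side by side in each list.

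Because these genes are typical of anchored cells, markers of other cell types were read in the same libraries, and each list was also summed without its most abundant marker, a choice made after the values were seen. Calls among the markers stand beside 16.5% higher and 6.08% lower over all genes tested, and no test of these small lists was made. Of 15 fibroblast markers, LUM, DPT, PDGFRA and TWIST2 had no count, and together with THY1, FAP and PRRX1 they made 7 at 3 counts or fewer in both groups. The summed normalized counts were 1364 to 1526 in WT against 1769 to 2119 in Delta-TRRAP, and without COL6A3 they were 58.5 to 84.5 against 959 to 1031. Most of the latter was COL1A2, which had 1, 4 and 0 counts in WT and 887, 947 and 788 in Delta-TRRAP (log2 8.94 ± 0.21 SE). COL5A1 and PDGFRB were the others called higher of 6 tested, and COL1A2 and PDGFRB passed the filter only through Delta-TRRAP. The remaining tested markers, COL1A1, DCN and COL6A3, were not called. COL1A1 was at 28.7 ± 10.4 and 30.1 ± 9.71 normalized counts, and DCN at 11.6 ± 3.16 and 8.90 ± 7.02, with overlap in both. COL6A3 fell from 1361 ± 72.4 to 944 ± 140 (log2 −0.53 ± 0.08 SE, edgeR adjusted p = 4.96e-05), short of 2-fold.

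The 7 markers of smooth muscle had sums of 889 to 958 in WT against 1120 to 1180 in Delta-TRRAP, made of large moves in both directions. ACTA2, smooth muscle actin, had 0, 1 and 0 counts in WT and 537, 538 and 510 in Delta-TRRAP, and it passed the filter only through Delta-TRRAP. LMOD1 was at 71.7 ± 7.998 and 223 ± 23.7, CNN1 at 285 ± 14.4 and 70.1 ± 6.03, and DES at 500.1 ± 20.3 and 198 ± 9.25 normalized counts. ACTA2 and LMOD1 were called higher and CNN1 and DES lower of 5 tested.

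The 9 endothelial markers had sums of 700 to 717 in WT against 443 to 525 in Delta-TRRAP, but without PECAM1 they had 31.4 to 34.6 against 79.3 to 92.2. TEK (2.30 ± 1.43 and 33.98 ± 4.72 normalized counts) and ROBO4 (no count and 10.4 ± 2.48) were called higher of 5 tested, both through Delta-TRRAP alone. KDR had no count in WT and 5, 6 and 6 counts in Delta-TRRAP, VWF had 0, 1 and 0 against 6, 2 and 2, and CDH5 and CLDN5 had at most 1 count in either group. The 9 epithelial markers, of which 1 was called lower of 4 tested, were at 23732 to 24438 and 25072 to 26815, and without KRT8 the groups overlapped.

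The 13 erythroid markers had sums of 234396 to 236753 in WT against 162560 to 166961 in Delta-TRRAP, and TFRC, the transferrin receptor, made up most of them (192094 ± 2051 and 90173 ± 5302). Without TFRC the other 12 had sums of 41223 to 44636 against 70943 to 76886, the opposite direction. ALAS2, the first enzyme of haem synthesis in erythroid cells, was at 1241 ± 81.8 and 16645 ± 515, and HBZ, an embryonic globin, at 1439 ± 120 and 10665 ± 1485. With HBE1 these were the 3 called higher, and TFRC and LMO2 were the 2 called lower. Of 8 megakaryocyte markers, GP1BA, GP9 and PF4 were among those with no count, and only ITGA2B was deep enough to test. The part of these shifts in the values of the matrix genes was not tested.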

How the data were processed

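The authors deposited, for each of the 6 poly(A) RNA-seq libraries, counts of reads per gene: STAR placed the reads on hg38, and those with a single placement were counted on GENCODE genes by HTSeq 2.0.2, reverse-stranded, in union mode, without normalization. Reads with several placements were thereby lost, which lowers genes with near-identical copies. A series table of size-factor-scaled signal and of the authors' own fold changes and p-values was not used, nor were its 3 per-sample columns of another condition. Groups came from the sample titles.

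The main test was that of edgeR 4.0.16 under R 4.3.3 (TMM factors, quasi-likelihood F test, group as the only term, Benjamini-Hochberg adjustment over all genes tested). Of 34998 genes with a count, the 19114 whose mean normalized count reached 5 were tested, and genes were called at an adjusted p of 0.01 and a 2-fold change, the thresholds of the study, which used DESeq2. Errors of log2 differences are the absolute difference divided by the square root of F. The procedure was tested on simulated data. Where a symbol had several IDs, the one with the highest total count was used. Positions and lengths came from GENCODE release 44 on GRCh38, a later release than the authors', and promoters from RefSeq. Neighbours were kept if their mean normalized count reached 100. Profiles were compared on log2(normalized count + 0.5). Depth was 35076835 to 42616061 counts per library, so a gene with under 5 counts per library is poorly measured.

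Members, lists and alternatives were chosen with earlier results of these data known. From each matrix list, called genes whose mean reached 50 and whose groups did not overlap were ordered by log2 difference, and the first 3 that rose and the first 2 that fell are named. Some genes that this rule names are not reported here. Alternatives were DESeq2 1.42.0, limma-voom (limma 3.58.1), median-of-ratios and library-size scaling, no filter and a minimum mean of 50, a block for the replicate number, and omission of each library in turn.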

Additional observations from a re-analysis of the deposited data

How the results depend on the processing

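Over all genes, 4322 were called, and 1964 (1291 higher, 673 lower) with a minimum mean of 50. With that minimum 3 members were called higher and 0 lower, and the calls were 3 for relatives, 5 for receptors, 2 for elastic fibre and hyaluronan partners and 5 for proteases, since fewer genes were tested. Without a filter 2 members were called lower and 7 elastic fibre and hyaluronan partners were called. No member was called lower (0) by DESeq2, limma-voom or library-size scaling, and 0 to 2 were with a library left out. The difference of TNC reversed under limma-voom (log2 0.023) and ranged from −0.55 to 0.52 with a library left out. Scaling by library size moved the median log2 difference of all genes from 0.03 to 0.16 and the share of calls that were higher from 73.1% to 79.3%. The directions of FN1, SPARC, POSTN, VCAN and THBS1 held under every alternative in which they were tested.

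The replicate numbers did not pair the libraries: correlations of deviations between same-numbered libraries were 0.04, −0.07 and −0.12. With the replicate number as a block 4184 genes were called, 5 members higher and 1 lower. Depth limits TNC, FBLN1, NID1 and the WT levels of POSTN and VCAN.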
